A study of Mus musculus with 12 samples.

Results

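The genes described here are the cytosolic ribosomal protein genes, chosen by symbol alone: every gene named Rpl or Rps followed by a number and at most 1 letter a, l, x or y, together with Rplp0, Rplp1, Rplp2 and Rpsa. This gave 76 of the 13016 genes in the table, 45 of the large ribosomal subunit and 31 of the small subunit. RNA was measured in early thymic precursors, the earliest T-lineage progenitors of the thymus, from C57BL/6 mice, in 12 libraries of 100 sorted cells each, with 4 libraries per genotype. All 3 genotypes carried loxP-flanked alleles of both Ezh2, a histone methyltransferase, and Runx1, a transcription factor (Ezh2 fl/fl Runx1 fl/fl). The group called control had no Cre, the group called dKO also carried Rag1Cre, a recombinase under control of the lymphoid gene Rag1, and the group called dKO_Flt3ITD carried Rag1Cre and Flt3 ITD/+, 1 mutant copy of the receptor kinase Flt3 with an internal tandem duplication. Rag1Cre acts only in cells that have switched on Rag1, so a dKO library can hold cells in which an allele was not deleted. Ages are not given in the labels, and nothing in them says whether the 4 libraries of a group came from separate mice, so the p-values measure the spread between these libraries, which may be technical.

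Ribosomal proteins and ribosomal RNA are joined in the nucleolus into a large subunit, which forms peptide bonds, and a small subunit, which reads the messenger RNA. Each subunit needs most of its proteins in equal number, and the messenger RNAs of these proteins share a pyrimidine-rich start, the 5′ terminal oligopyrimidine tract, through which mTOR signalling controls their translation as a group. In the thymus, proliferating progenitors make many ribosomes, loss of Rpl22 halts αβ T-cell development, and RPL5, RPL10 and RPL22 are mutated in a share of human T-cell leukaemias.

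The shared start is shown for 7 members as examples, 4 of them short genes and 3 longer ones. Each line gives 40 bases of the reference promoter, 20 before the annotated start and 20 from it, 5′ to 3′ on the transcribed strand, from RefSeq on GRCm38.p6. Capitals mark the unbroken run of C and T that contains the first transcribed base.
Rpl38 (chr11:114668560-114668599, plus strand): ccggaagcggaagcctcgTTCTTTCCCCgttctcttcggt
Rplp2 (chr7:141447631-141447670, plus strand): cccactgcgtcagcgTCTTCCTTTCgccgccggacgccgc
Rps18 (chr17:33955646-33955685, minus strand): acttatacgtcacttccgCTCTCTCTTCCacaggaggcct
Rps27 (chr3:90213629-90213668, minus strand): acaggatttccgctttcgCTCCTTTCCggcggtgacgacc
Rps6 (chr4:86857348-86857387, minus strand): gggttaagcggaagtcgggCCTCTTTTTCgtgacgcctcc
Rpl13 (chr8:123102330-123102369, plus strand): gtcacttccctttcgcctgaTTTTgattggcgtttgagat
Rpl4 (chr9:64173367-64173406, plus strand): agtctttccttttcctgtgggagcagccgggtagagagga
The run measured 10 bases in Rpl38, Rplp2 and Rps6, 11 in Rps18, 9 in Rps27 and 4 in Rpl13, while in Rpl4 the annotated first base is not a pyrimidine. Not all short members have a long run. It measured 4 bases in Rps28, the shortest member, and the annotated first base is not a pyrimidine in Rpl11 (594 bases) and Rps26 (448 bases). RefSeq promoters matched 56 member genes with 67 starts. A run of at least 6 held the first base in 19 of these 67 starts (28.4%) against 2381 of all 32851 starts (7.25%). CTTTCC or CTTTTC stood on the transcribed strand of the 40-base window in 14 member starts (20.9%) against 3.32% of all, and on the other strand in 1 (1.49%) against 2.97%. The 2 hexamers can overlap each other and the run. A match in these letters is a description of the reference and no measurement of the libraries.

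The libraries held 13624672 to 33994953 reads assigned to genes, and every member had whole reads behind its values. The values are RPKM, reads per kilobase of gene length scaled to a library total, which the authors deposited. In this table the RPKM summed over all genes was not the same in each library. It ran from 515638 in control 1 to 1071041 in dKO_Flt3ITD 1, and dKO 1 came next with 829421. Each result is therefore also given after every library was rescaled to the same summed RPKM, called equal summed RPKM here, with levels in parts per 1000000 of that sum (ppm). Libraries also differed in gene length. The slope of the other genes' log2(RPKM + 1) on log2 length, each gene against its own mean, was 0.204 in control 1, −0.304 in dKO_Flt3ITD 1 and between −0.073 and 0.086 in the other 10 libraries, so dKO_Flt3ITD 1 favoured short genes and control 1 long ones. Ezh2 was at 32.8 to 45.7 RPKM in control, 16.9 to 29.8 in dKO and 12.03 to 24.6 in dKO_Flt3ITD. Runx1 was at 16.3 to 25.3, 35.9 to 58.2 and 32.6 to 58.8 in the same order, and a value over the whole gene includes undeleted exons, so it does not check the deletion. All 8 markers of early thymic progenitors, Kit, Cd34 and Cd44 among them, were in the table, with a summed level of 676 to 959 RPKM in control, 493 to 595 in dKO and 456 to 592 in dKO_Flt3ITD. The 4 macrophage genes in the table summed to 4.59 to 40.2 RPKM in control, 26.7 to 44.0 in dKO and 34.8 to 53.7 in dKO_Flt3ITD, and limma called 1 of 4 higher in each of those genotypes against control, Mrc1 in dKO and Emr1 in dKO_Flt3ITD (limma adjusted p = 0.0163 and 0.0481). Later thymocyte genes summed to 5.49 to 24.8 RPKM, Nkg7 of natural killer cells was at 224 to 1841, Psmb11 of the thymic stroma at 1.36 to 3.88, and the granulocyte genes Mpo and Elane summed to 7.83 to 826, highest in dKO_Flt3ITD 4. Outside the macrophage genes limma and voom, limma's test on the recovered reads, called 0 genes of these lists in any comparison, and voom called 0 macrophage genes. The largest number with an unadjusted p under 0.05 was 4 of 8 progenitor markers for dKO_Flt3ITD against control, by limma and by voom. Over all tested genes that share was 13.4% by limma and 14.0% by voom. Of the 8 markers 2, Gata3 and Hes1, had estimates above 0 in that comparison. The part of these cell type genes in the results on ribosomal protein genes was not tested.

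Ribosomal protein genes made up 64 of the 100 genes of highest mean RPKM, and their share of the summed RPKM of a library was between 24.3% and 36.1%. In control the share was 29.6%, 27.0%, 26.6% and 25.6% in libraries 1 to 4. In dKO it was 27.6%, 24.7%, 24.9% and 24.3%, so 3 of the 4 dKO libraries were below all controls. In dKO_Flt3ITD it was 36.1%, 28.8%, 31.3% and 26.9%, with the 2 highest shares of the study in libraries 1 and 3, while libraries 2 and 4 overlapped the controls and library 4 also dKO 1.

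**Figure D1:**
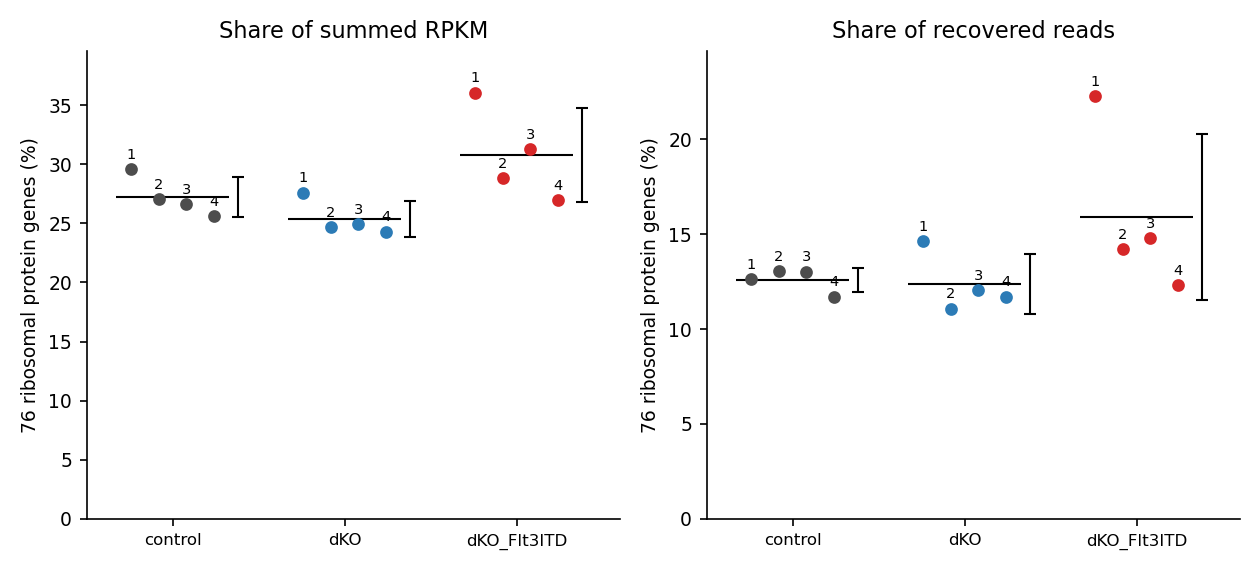
Share of the 76 ribosomal protein genes in the summed RPKM (left) and in the recovered reads (right) of each library, in percent, by genotype. Points carry the library number, lines are means and bars the SD of 4 libraries. dKO_Flt3ITD 1 is the highest point in both panels, at 36.1% of RPKM and 22.3% of reads.

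Over 4 libraries each, the mean share and its SD were 27.2% ± 1.68 for control, 25.4% ± 1.50 for dKO and 30.8% ± 3.95 for dKO_Flt3ITD. The difference of dKO_Flt3ITD from dKO was 5.41 percentage points (exact two-sided permutation p = 0.0571, adjusted p = 0.171 over 3 comparisons). dKO_Flt3ITD exceeded control by 3.56 points (exact permutation p = 0.171, adjusted p = 0.171), and dKO differed from control by −1.86 points (exact permutation p = 0.143, adjusted p = 0.171). None of the 3 passed the threshold of 0.05. With 4 libraries against 4 the smallest exact p is 0.0286, and the smallest adjusted p of a single comparison reaching it is 0.0857. Leaving out dKO_Flt3ITD 1 lowered the differences to 3.65 points from dKO and 1.79 points from control. After each library's gene-length trend was removed they were 4.56 (exact permutation p = 0.0286, adjusted p = 0.0857) and 1.95 points. The trend removed is that of the other genes, which the members did not follow closely. At equal summed RPKM the slope in control 1 was 0.214 for other genes and −0.0126 for members. In dKO_Flt3ITD 1 these were −0.290 and −0.108. With the trend removed the share was 33.2% in control 1 and 32.1% in dKO_Flt3ITD 1. In bulk RNA of 100 cells, fewer cells of a type and less RNA per cell cannot be told apart.

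Counted in reads, members are a smaller part, since most are short. Their share of reads was 11.1% to 14.8% in 11 libraries and 22.3% in dKO_Flt3ITD 1. The proportion of the subunits was steady: the summed RPKM of the large subunit genes over that of the small subunit genes was 1.16 to 1.30 across libraries, with means over n = 4 of 1.24 ± 0.0613 (SD, control), 1.26 ± 0.0374 (dKO) and 1.23 ± 0.0163 (dKO_Flt3ITD). No comparison of this ratio passed (exact permutation test, adjusted p = 0.829 in all 3).

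No single ribosomal protein gene passed the test across all genes in any comparison on the deposited scale. All 76 members met the filter of at least 1 RPKM in at least 4 libraries, and limma on log2(RPKM + 1) with Benjamini-Hochberg adjustment over 10690 genes called 0 of them. Among all tested genes it called 1.02% for dKO against control, 0.0% for dKO_Flt3ITD against dKO and 1.5% for dKO_Flt3ITD against control. At an unadjusted p under 0.05 the members numbered 0, 14 and 9 in that order, where the share over all tested genes was 9.18%, 7.71% and 13.4%. Voom on the recovered reads also called 0 members in each comparison, and 0.0281%, 0.0% and 0.253% of all tested genes. By voom 0, 15 and 22 members had an unadjusted p under 0.05, beside 8.73%, 7.03% and 14.0% of all tested genes.

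The estimates nevertheless leaned to higher levels in dKO_Flt3ITD. The estimate was above 0 for 72 of 76 members against control, with a median of 0.46, and for 72 of 76 against dKO, with a median of 0.37, while the median over all tested genes was 0.00 in both. These comparisons share the dKO_Flt3ITD libraries. For dKO against control 46 of 76 were above 0, with a median of 0.04 beside 0.01 over all genes. At equal summed RPKM the medians of members were 0.20, 0.25 and −0.10 for dKO_Flt3ITD against control, dKO_Flt3ITD against dKO and dKO against control. The medians over all tested genes shifted to −0.21, −0.09 and −0.11, and 63, 67 and 14 members were above 0. The direction of dKO against control thus turned with the scale, and relative to all genes it was 0.03 on the deposited scale and 0.01 at equal summed RPKM. Without dKO_Flt3ITD 1 the medians on the deposited scale were 0.17 against control and 0.10 against dKO, and without dKO 1 the median of dKO against control was −0.12. With each library's gene-length trend removed the medians of members were 0.24 against control and 0.23 against dKO, with 67 and 68 members above 0. With equal summed RPKM and the length trend removed together they were 0.0024 and 0.12, with 38 and 59 of 76 above 0, where the median over all genes was −0.20 and −0.09.

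How far 1 library carries these levels shows in the members themselves. Of 76 members, 72 were highest in dKO_Flt3ITD 1 by RPKM, and 43 remained highest there at equal summed RPKM, where 12 were highest in control 1 and 10 in dKO_Flt3ITD 3. The median coefficient of variation of a member between libraries of a genotype was 11.6% in control, 27.8% in dKO and 44.3% in dKO_Flt3ITD by RPKM. After rescaling it was 13.5%, 13.9% and 15.96%.

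**Figure D2:**
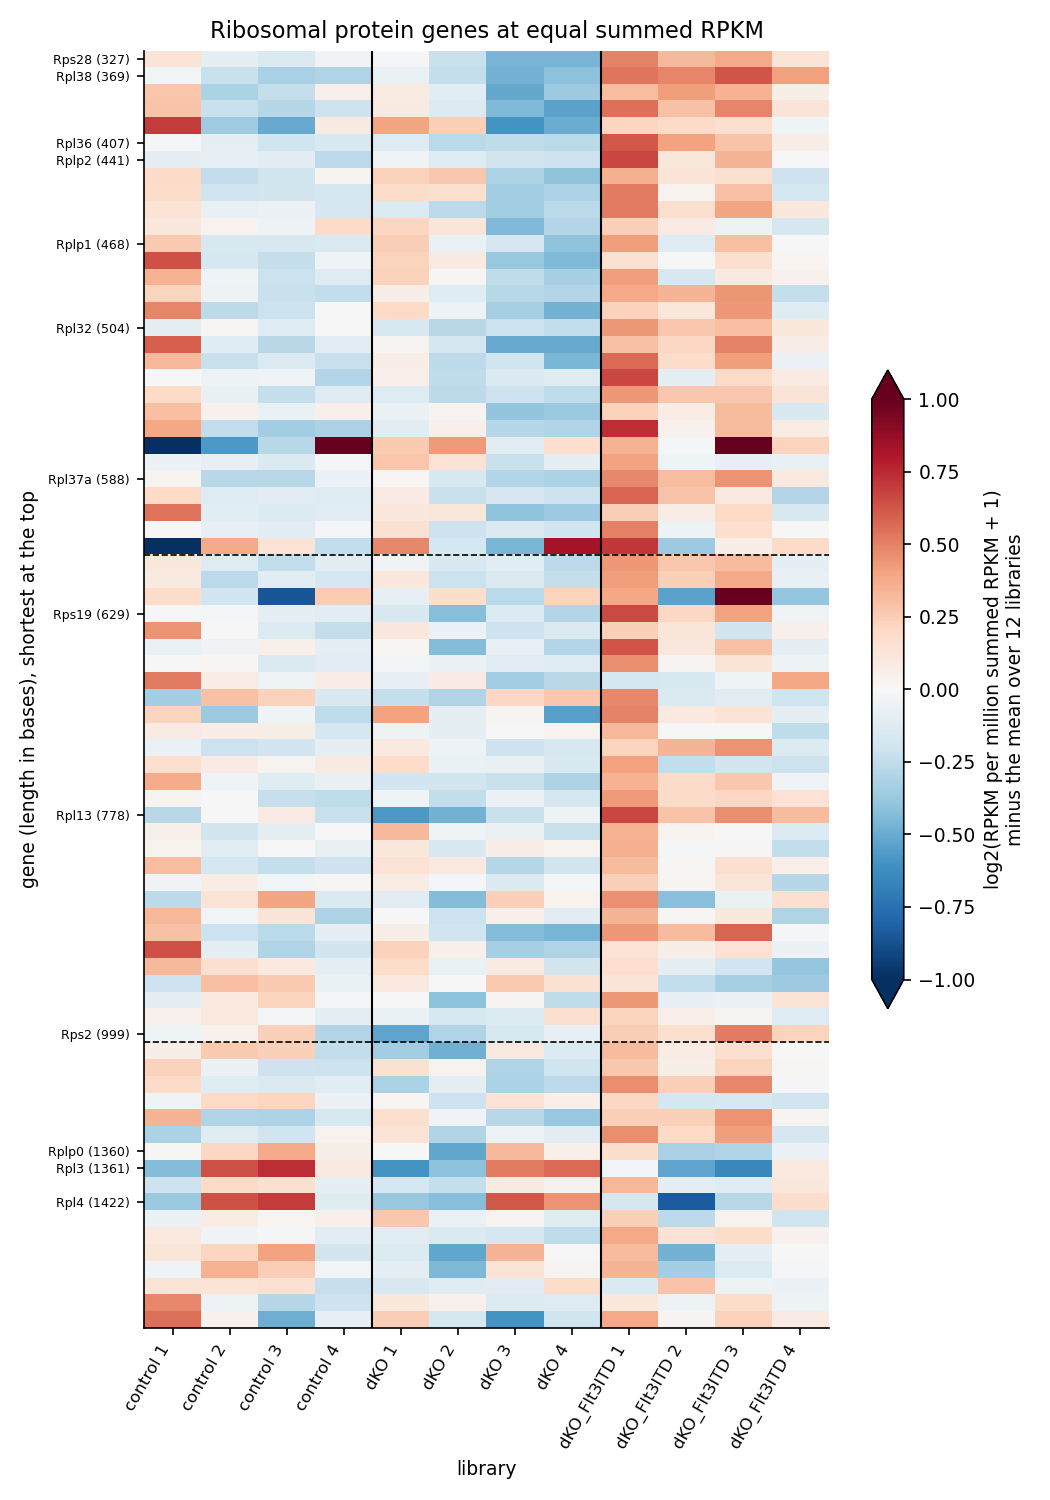
Level of each of the 76 genes (rows, shortest gene at the top; some genes described in the text are labelled, with the length in bases after the symbol) in the 12 libraries (columns) at equal summed RPKM, as log2(ppm + 1) minus the gene's mean over libraries. Colours stop at −1 and 1, and dashed lines mark 600 and 1000 bases. Most rows are red in dKO_Flt3ITD 1, and Rpl3 and Rpl4 are deepest red in control 2 and 3 and dKO 3 and 4.

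Rpl38 stood highest among the members in both comparisons of dKO_Flt3ITD once the low-level gene Rps27 is set aside. It encodes a small protein at the surface of the large subunit, is mutated in the Tail-short mouse, and is known for its part in the translation of Hox messenger RNAs in the embryo. The gene lies at chr11:114668524-114672331 on the plus strand of GRCm38 (ENSMUSG00000057322). Its length in the table is 369 bases, and 50.9% of the 50-base stretches of its transcript also occur in 5 other annotated genes. Rpl38 was at 1407, 1505, 1456 and 1347 RPKM in control, at 2199, 1309, 1276 and 1332 in dKO and at 4311, 2476, 2867 and 2122 in dKO_Flt3ITD. All 4 dKO_Flt3ITD libraries were above all controls, and of dKO only library 1 reached their range. The log2 fold change was 0.99 against control (SE 0.28, limma adjusted p = 0.103) and 0.93 against dKO (SE 0.28, limma adjusted p = 0.364).

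At equal summed RPKM the Rpl38 levels drew together within dKO and within dKO_Flt3ITD, and spread further apart within control. They were 2729, 2381, 2221 and 2255 ppm in control, 2651, 2360, 2000 and 2084 in dKO, and 4025, 3887, 4301 and 3684 in dKO_Flt3ITD, with means of 2396 ± 232, 2274 ± 295 and 3974 ± 259 (SD, n = 4). The dKO_Flt3ITD libraries did not overlap either other genotype. On this scale Rpl38 rose against control by 0.73 (SE 0.15, limma adjusted p = 0.0130), where 1.57% of all tested genes were called and the median gene stood at −0.21. Against dKO the estimate was 0.81 (SE 0.15, limma adjusted p = 0.0512), with 0.0187% of genes called. It was the 1 member called on that scale, and for dKO against control 0 members were called there, beside 1.05% of genes and a limma adjusted p of 0.612 or more for each member. Leaving out 1 library at a time, chosen after seeing the data, the limma adjusted p against control lay between 0.0108 and 0.0508, and the call was lost without control 4. It was also lost with the gene-length trend removed on that scale, where the estimate was 0.45 (SE 0.23, limma adjusted p = 0.391). Over 32 settings for the comparison with control, those on the deposited scale included, Rpl38 passed in 10, with an estimate of 0.45 to 1.13.

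Rpl13, a large subunit protein, showed the same order. Its gene is at chr8:123102350-123105244 on the plus strand of GRCm38, 778 bases long in the table, and shares 80.3% of its 50-base stretches with 15 other genes, processed copies among them. The levels at equal summed RPKM were 4613, 5571, 5910 and 4805 ppm in control, 3766, 4037, 4802 and 5411 in dKO, and 8904, 6809, 7727 and 6957 in dKO_Flt3ITD. Again no dKO_Flt3ITD library overlapped the other genotypes. The estimate on this scale was 0.54 against control (SE 0.15, limma adjusted p = 0.0759) and 0.76 against dKO (SE 0.15, limma adjusted p = 0.0802), and neither passed.

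**Figure D3:**
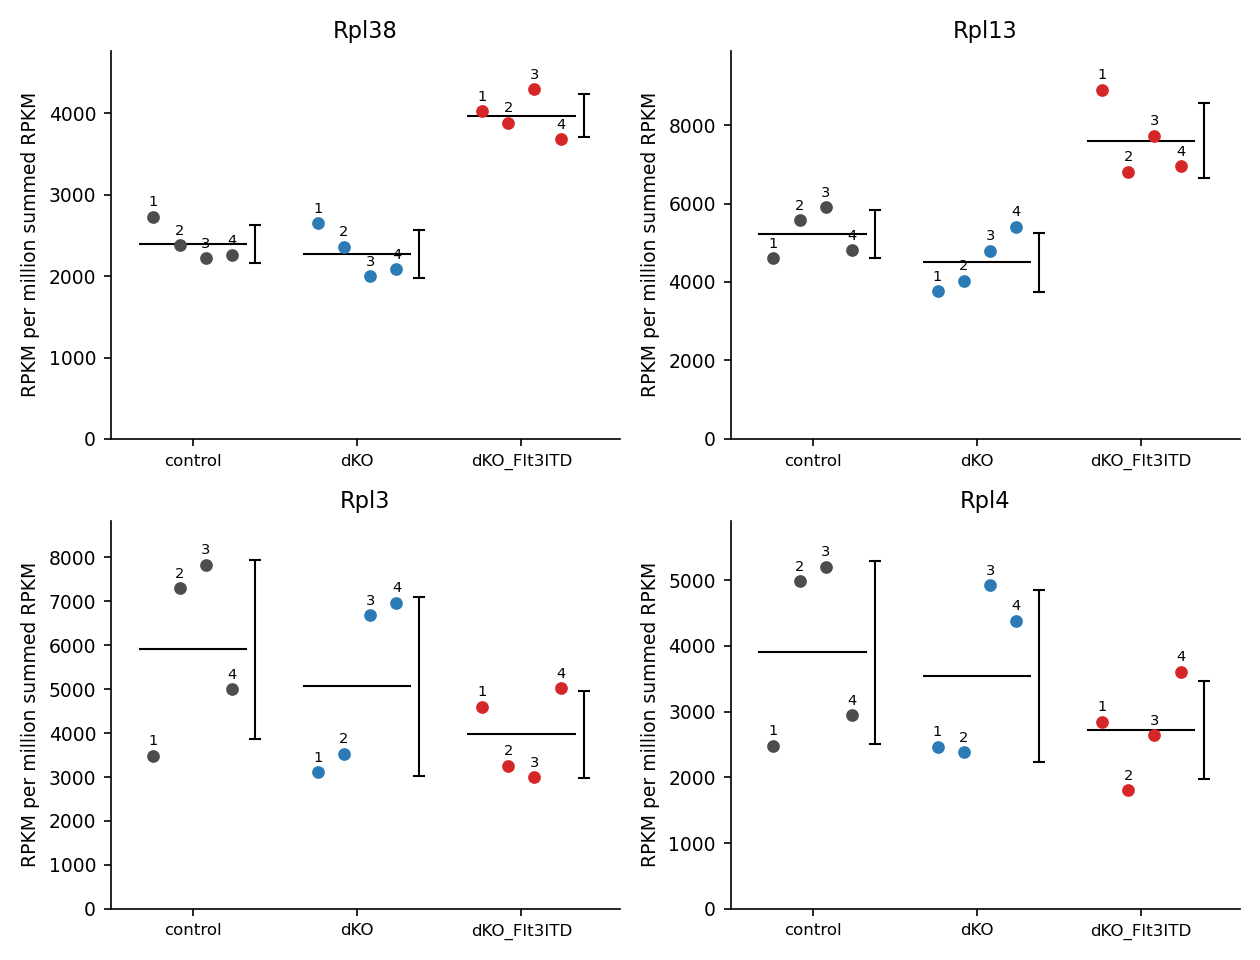
Levels of Rpl38, Rpl13, Rpl3 and Rpl4 in ppm of summed RPKM, by genotype. Points carry the library number, lines are means and bars the SD of 4 libraries. In the panels of Rpl38 and Rpl13 the dKO_Flt3ITD libraries sit above all others, while Rpl3 and Rpl4 split control and dKO into 2 higher and 2 lower libraries each.

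Members whose libraries do not overlap were also counted, from the same values as the estimates above. On the deposited scale all 4 dKO_Flt3ITD libraries were above all 4 controls for 8 members (10.5%), beside 4.16% of all tested genes. These were Rpl13, Rpl17, Rpl36, Rpl37a, Rpl38, Rps21, Rps23 and Rps28. Against dKO they were 2, Rpl13 and Rps2, near the share of all tested genes (2.63% beside 2.08%). On that scale 0 members were below, beside 3.51% of all genes below control and 2.2% below dKO. At equal summed RPKM the count against dKO was 17 (22.4% beside 1.65%) and against control 8 (10.5% beside 2.9%), with 0 members below, beside 2.57% and 4.69%. In dKO against control, 0 members separated on the deposited scale, beside 3.93% of all genes above and 2.38% below. After rescaling 3 were below, Rpl32 and Rps19 among them (3.95% beside 2.81%), and 0 above, beside 3.33%. Names in these counts follow from the separation and were not fixed in advance.

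Rps28, the shortest member at 327 bases and a protein at the mRNA exit of the small subunit, had 6133, 5278, 5099 and 5482 ppm in control, 5534, 4827, 4071 and 4063 in dKO and 7919, 7022, 7316 and 6140 in dKO_Flt3ITD. Its lowest dKO_Flt3ITD library exceeded the highest control by a small margin, and the estimate against dKO was 0.62 (SE 0.14, limma adjusted p = 0.158). Rps19, the gene most often mutated in Diamond-Blackfan anaemia, had 9776, 9657, 9104 and 9078 ppm in control, 8810, 7256, 8866 and 7980 in dKO and 15430, 11249, 12916 and 9539 in dKO_Flt3ITD. The dKO libraries were the lowest and dKO_Flt3ITD 4 lay among the controls. Rpl32 had 8846, 9468, 8629 and 9389 ppm in control, 8455, 7749, 8130 and 7924 in dKO and 12714, 11331, 11614 and 10136 in dKO_Flt3ITD, and no pair of genotypes overlapped. Its estimate was 0.50 against dKO (SE 0.11, limma adjusted p = 0.152) and −0.17 for dKO against control (SE 0.11, limma adjusted p = 0.752).

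The most abundant members were Rpl41, Rps18, Rps19, Rpl32 and Rps14, with mean RPKM of 7751 for Rpl41, which encodes the shortest of the ribosomal proteins. Rpl41 had 6545, 6151, 6451 and 5911 RPKM in control, 10510, 6900, 5635 and 5760 in dKO and 17054, 7278, 9118 and 5704 in dKO_Flt3ITD. The genotypes overlapped, and library 1 was the highest of dKO and of dKO_Flt3ITD. The median member had a mean of 2121 RPKM, so Rpl41 gave 4.11% of the summed RPKM of all members. Rps14, whose loss underlies the anaemia of the 5q deletion syndrome, went most closely with the mean of the other members (r = 0.99 over 12 libraries), with Rpl24 and Rpl21 next to it.

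At the other end, 3 members were nearly silent in the table, Rpl30, Rpl34 and Rps27, with means of 5.96, 5.78 and 5.56 RPKM, although each protein is part of every ribosome. The next lowest was Rps15a at 119, whose length in the table, 5134 bases, is the largest of any member and lowers its RPKM. Rps27 was at 0, 2.62, 3.49 and 9.39 RPKM in control, 6.77, 5.14, 3.88 and 4.86 in dKO and 9.39, 4.20, 12.5 and 4.59 in dKO_Flt3ITD. Behind these stand 0 to 177 reads, the control values alone run from the lowest to near the highest, and the groups overlap. Its log2 fold change of 1.15 against control, the largest of any member, did not pass (SE 0.62, limma adjusted p = 0.442). Rps27 shares 63.1% of its 50-base stretches with 9 other genes, Rpl30 76.4% with 17 and Rpl34 37.9% with 9. Across members the median was 55.5% and 23 members shared more than 75%. Rpl10, at 1708 to 4442 RPKM, shared 92.1%. How reads that fit several genes were counted is not given in the sources used here, and its part in these levels was not tested. Rps27l, a near copy of Rps27 that responds to p53, had a mean of 656 RPKM.

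The members varied together across libraries. The median Pearson r between 2 members, over 12 libraries on log2(RPKM + 1), was 0.83 for the 2850 pairs, and 99.0% of pairs were positive. Over all pairs of the 10690 tested genes the median was −0.0002 with 49.98% positive. All pairs share the same libraries and their scale, and the value is a description with no test. Without dKO_Flt3ITD 1 the median was 0.60. With equal summed RPKM it was 0.45 (78.7% positive, median 0.07 over all pairs), and on that scale without dKO_Flt3ITD 1 it was 0.30. Deviations from the genotype means gave 0.86 on the deposited scale, so it was as large between libraries of a genotype.

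**Figure D4:**
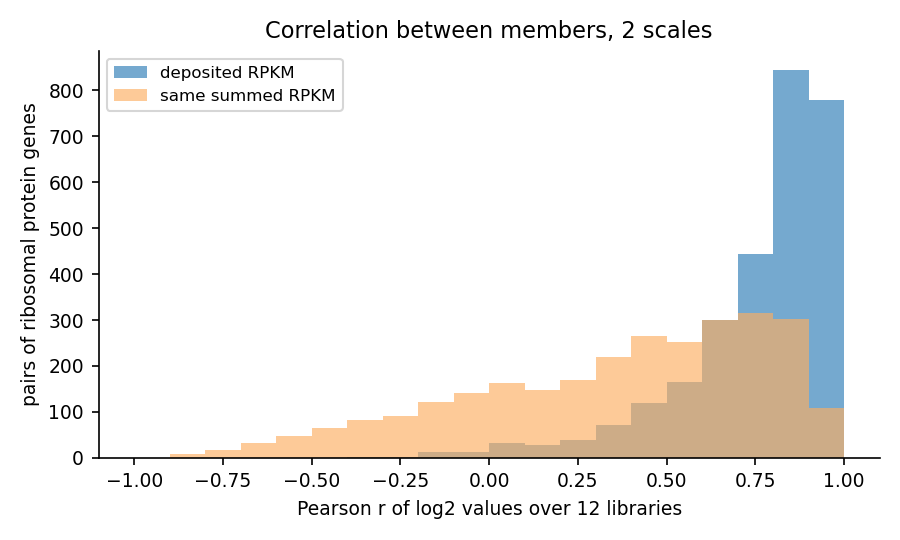
Number of the 2850 pairs of ribosomal protein genes by Pearson r over 12 libraries, in steps of 0.1, for the deposited RPKM and for equal summed RPKM. On the deposited scale 1622 pairs lie at 0.8 or more, and at equal summed RPKM 410 do.

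At equal summed RPKM the agreement between members differed between classes of gene length. The members were split at 600 and 1000 bases into 30 short, 29 middle and 17 long genes. At equal summed RPKM the median r within the short genes was 0.71, within the long genes 0.11, and between short and long genes 0.16. On the deposited scale the same values were 0.90, 0.73 and 0.75. At equal summed RPKM with each library's length trend removed, they were 0.84 within the short, 0.14 within the long and 0.06 between them. Removing the trend shifts all short genes of a library by a similar amount, which can itself raise the r within them. The values with the trend removed therefore do not show that the short genes share a pattern apart from length. Over all members, removing the trend lowered the median r from 0.83 to 0.62 on the deposited scale. It raised the median r from 0.45 to 0.55 at equal summed RPKM.

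Rpl3 and Rpl4 departed most from the rest. Rpl3 lies at the peptide-forming centre of the large subunit and Rpl4 lines the exit tunnel. Their r with the mean of the other members was 0.25 and 0.27, and at equal summed RPKM −0.49 and −0.46, while r between Rpl3 and Rpl4 was 0.95 and 0.93. Rpl3 was at 3480, 7301, 7831 and 5004 ppm in control, 3105, 3526, 6685 and 6963 in dKO and 4604, 3253, 2995 and 5021 in dKO_Flt3ITD. Rpl4 was at 2480, 4981, 5206 and 2947 ppm in control, 2468, 2380, 4922 and 4384 in dKO and 2845, 1801, 2637 and 3610 in dKO_Flt3ITD. Both were high in control 2 and 3 and in dKO 3 and 4, and in no dKO_Flt3ITD library, and the genotypes overlapped for both. Rpl3 differed from control by −0.54 in dKO_Flt3ITD on this scale (SE 0.28, limma adjusted p = 0.399), a difference within the spread between libraries. Rpl39, a short gene of the exit tunnel named here after its values were seen, ran opposite to Rpl3 (r = −0.88 at equal summed RPKM).

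The same 4 libraries stand apart in the balance of short and long members. Rpl3 and Rpl4 are themselves long members, so this balance is not separate from their levels. The summed RPKM of short over long members was 2.42, 2.33, 2.23 and 2.34 in control 2, control 3, dKO 3 and dKO 4, and 2.96 to 3.71 in the other 8 libraries. All dKO_Flt3ITD libraries were among the 8, at 3.52, 3.66, 3.70 and 3.08. Means and SD over n = 4 were 2.85 ± 0.634 for control, 2.86 ± 0.668 for dKO and 3.49 ± 0.283 for dKO_Flt3ITD, and no comparison passed (exact permutation test, adjusted p = 0.971, 0.257 and 0.257 for dKO against control, dKO_Flt3ITD against dKO and dKO_Flt3ITD against control). Control 1, with the length slope most in favour of long genes, had the highest ratio of short to long members at 3.71, and dKO_Flt3ITD 1, with the slope most in favour of short genes, was at 3.52. No relation of this ratio to the slope was tested.

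On the deposited scale, with dKO_Flt3ITD 1 included, fold changes were lower for longer members in the comparisons with dKO_Flt3ITD. The length slope of that library was −0.304, where the others of its genotype lay between 0.017 and 0.035. The part of that library in these values was not tested. Across the 76 members, Spearman's rho of log2 fold change with length was −0.48 against control and −0.48 against dKO, where over all tested genes it was −0.18 and −0.12. For dKO against control it was −0.04, beside −0.10. The genes are not independent replicates. The median log2 fold change of dKO_Flt3ITD against control was 0.56 for the short, 0.38 for the middle and 0.30 for the long members, and it was 0.39 for the 1009 shortest of the other tested genes, which reach to 1049 bases. Against dKO the 3 medians were 0.45, 0.28 and 0.19, and 0.22 for those 1009 genes. The middle members stood near the level of those short genes against control. Of the long members, which span 1026 to 5134 bases, the median of 0.30 against control stood beside 0.20 for the other genes of 1050 to 1503 bases, 0.07 for those of 1504 to 1904 and −0.02 for those of 1905 to 2301. Against dKO their median of 0.19 stood beside 0.08, 0.05 and −0.03. For dKO against control the members, at 0.04, 0.08 and −0.01, were below the 1009 shortest other genes at 0.19. At equal summed RPKM the medians of short, middle and long members were 0.30, 0.12 and 0.05 for dKO_Flt3ITD against control. Against dKO they were 0.33, 0.16 and 0.07 on that scale.

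**Figure D5:**
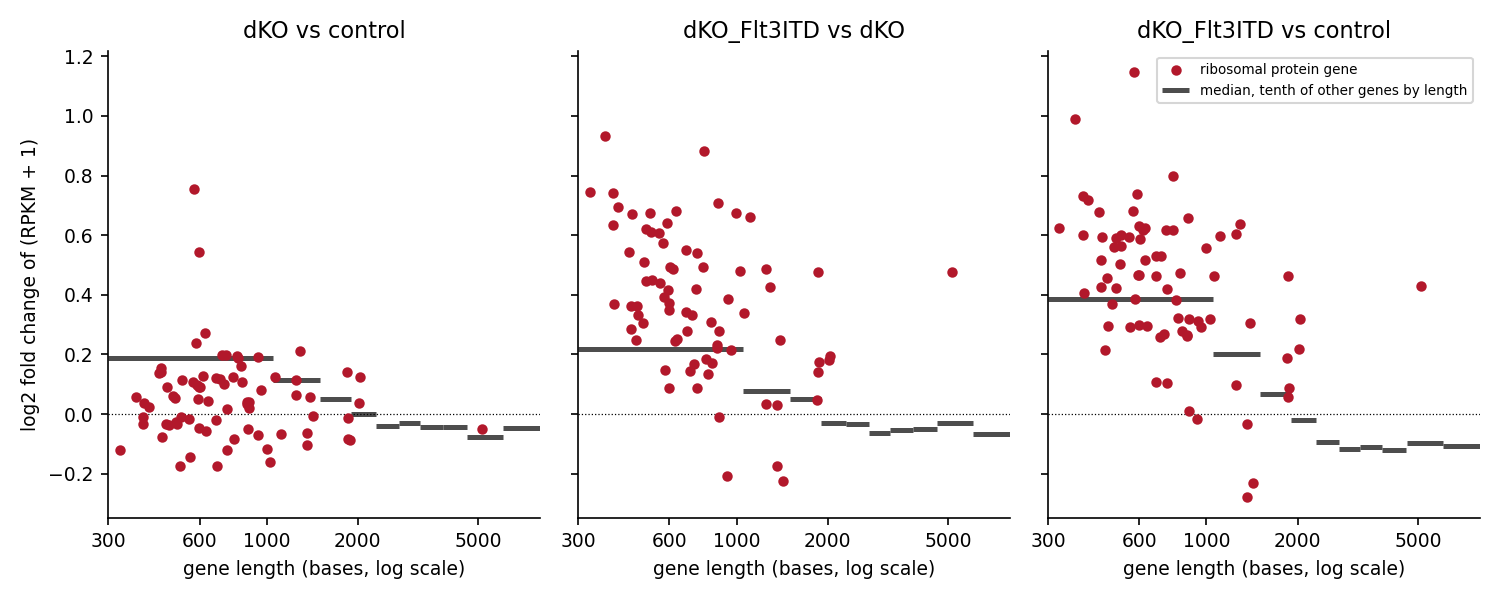
Log2 fold change of each ribosomal protein gene (points) against gene length in bases on a log axis cut at 300 and 8000, for the 3 comparisons on log2(RPKM + 1). Grey bars are medians of the other tested genes in 10 length classes of like size. In both panels with dKO_Flt3ITD the shortest members lie highest and Rpl3 and Rpl4 lie below 0.

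Across libraries the share of members was related to none of 3 library measures after adjustment. With the gene-length slope Pearson's r was −0.56 (permutation p = 0.0851, adjusted p = 0.130) and Spearman's rho −0.22 (permutation p = 0.486) over 12 libraries. Without the 2 libraries farthest from the median slope, dKO_Flt3ITD 1 and control 1, r was −0.20. Without dKO_Flt3ITD 1 alone it was 0.21, so its sign changed with the libraries left out. Taken as deviations from the genotype means r was −0.54 (permutation p = 0.0701). With the number of reads r was 0.52 (permutation p = 0.0866, adjusted p = 0.130), and −0.17 without its 2 extreme libraries. With the number of genes at 1 RPKM or more r was −0.20 (permutation p = 0.510, adjusted p = 0.510).

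Among members known for single roles, the proteins of the stalk that recruits elongation factors varied together on the deposited scale and only in part at equal summed RPKM. Rplp1 and Rplp2, which form its dimers, had an r of 0.93 on the deposited scale and 0.73 at equal summed RPKM over 12 libraries. Rplp0, their base on the ribosome, had an r of 0.61 with Rplp1 and 0.64 with Rplp2 on the deposited scale, and −0.16 and −0.13 at equal summed RPKM. Rplp2 was at 1928, 1940, 1900 and 1718 ppm in control, 2012, 1881, 1798 and 1785 in dKO and 3279, 2223, 2611 and 2058 in dKO_Flt3ITD. All dKO_Flt3ITD libraries were above both other genotypes, with an estimate of 0.42 against each that did not pass (SE 0.16, limma adjusted p = 0.237 against control and 0.507 against dKO). Rplp0 was at 3329, 3819, 4292 and 3447 ppm in control, 3295, 2307, 4138 and 3428 in dKO and 3743, 2633, 2684 and 3174 in dKO_Flt3ITD, with overlap throughout. Rplp1 and Rplp2 are short genes and Rplp0 is a long one.

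Rpl5 and Rpl11, which carry the 5S ribosomal RNA and bind the p53 regulator Mdm2 when assembly fails, had an r of 0.83 on the deposited scale and 0.06 at equal summed RPKM. Their log2 fold changes against control in dKO_Flt3ITD were 0.22 and 0.47, and neither passed (limma adjusted p = 0.785 and 0.589). Rpl22, whose loss blocks αβ T cells, was at 255, 216, 191 and 183 RPKM in control, 315, 203, 205 and 207 in dKO and 408, 218, 268 and 196 in dKO_Flt3ITD. Library 1 was the highest of each genotype, and at equal summed RPKM the means were 358 ± 92.6, 348 ± 29.6 and 366 ± 30.1 ppm (SD, n = 4). Rps6, the target of the S6 kinases, had means of 4594 ± 612, 4330 ± 481 and 4746 ± 710 ppm, and Rpsa, also known as a laminin receptor, 2346 ± 386, 2034 ± 491 and 2055 ± 453 (SD, n = 4, control, dKO and dKO_Flt3ITD). For these 3 genes no difference exceeded the spread between libraries, and limma passed none on either scale.

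Ribosomal proteins whose names fall outside the rule differed widely in level. Fau, which encodes a ribosomal protein fused to a ubiquitin-like domain, had a mean RPKM of 1092, and its r with the mean of the members was 0.94. Rps3a1 had a mean of 4102 RPKM. The copies Rpl22l1 and Rpl7l1 were lower, at 423 and 112 RPKM. Rpl36al had a mean of 709 RPKM and Rps4y2 one of 4.86. Rpl26 was not analysed here. Rn45s, the precursor of ribosomal RNA, took 0.327% to 1.89% of reads in 11 libraries and 6.52% in dKO_Flt3ITD 3, where its level was 11211 RPKM.

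Other genes of the translation machinery were described in the same way, and their difference from the members was not tested. Of 20 translation factors and further proteins with oligopyrimidine messages, 19 were tested and 0 were called by limma in any comparison, with a median log2 fold change of 0.00 for dKO_Flt3ITD against control and 10 of 19 above 0. At most 2 of the 19 had an unadjusted p under 0.05 in a comparison, by limma and by voom, and voom called 0. The largest estimates against control were 0.74 for Fau, itself a ribosomal protein gene, 0.70 for Eif3f, a subunit of an initiation factor, and −0.73 for the histone chaperone Nap1l1, and none passed (limma adjusted p = 0.36, 0.54 and 0.28). Eef1a1, the main elongation factor and an oligopyrimidine message, named here after its values were seen, had means of 5173, 5075 and 3491 RPKM in control, dKO and dKO_Flt3ITD. The libraries ran from 2514 to 7384, from 2995 to 7052 and from 2743 to 4171 in that order, so the genotypes overlapped. The estimate of Eef1a1 for dKO_Flt3ITD against control was −0.47 (SE 0.36, limma adjusted p = 0.629). Of 35 genes in the control of ribosome production, 35 were tested and 0 called. They include Myc, subunits of RNA polymerase I and nucleolar proteins, and also brakes on translation such as Eif4ebp1. Their medians were −0.17 for dKO against control, 0.19 for dKO_Flt3ITD against dKO and −0.22 for dKO_Flt3ITD against control. Above 0 were 9, 22 and 16 of 35. Voom also called 0 of the 35, and at most 3 had an unadjusted p under 0.05 by limma and by voom. Eif4ebp1, an mTOR-controlled brake on translation, had 40.2, 66.7 and 134 RPKM, with an estimate of 1.85 for dKO_Flt3ITD against control that did not pass (SE 0.52, limma adjusted p = 0.0977). Taf1b of the polymerase I machinery had an estimate of −0.94 and Bysl, needed for small subunit assembly, one of 1.14 in that comparison, and neither passed (limma adjusted p = 0.50 and 0.31). Of 10 ribosomal protein genes linked to Diamond-Blackfan anaemia 9 were in the table, with 0 called and 9 of 9 above 0 in both comparisons of dKO_Flt3ITD, at a median of 0.32 against control and 0.33 against dKO. An unadjusted p under 0.05 was reached by 0 of the 9 with limma in any comparison and with voom by 2 against control (beside 14.0% of all tested genes) and 1 against dKO (beside 7.03%) in dKO_Flt3ITD, and voom called 0.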

How the data were processed

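Libraries were made with SMARTer, which copies whole messenger RNAs, from 100 sorted cells each, as the labels' protocols state. TopHat2 2.0.10, SAMtools 0.1.19, HTSeq 0.5.4p5 and the build mm10 are named in the submitters' processing notes. The authors deposited RPKM for 13016 genes and 12 libraries. The library total behind these values is not given in the sources used here.

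The steps between RPKM values gave back whole reads for 100.0% of values within 0.001 of a whole number, and gene lengths with them. The reads of each library over its recovered divisor gave 0.868 to 1.25, so the scale differs from plain totals. Groups came from the sample titles and columns were matched by description. Amplified reads without molecular identifiers are not independent molecules, so depth understates the error.

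A gene was tested where 4 or more libraries had 1 RPKM or more. The main test was limma 3.58.1 (R 4.3.3) with an intensity trend, fitted to log2(RPKM + 1) of all 12 libraries together (9 residual degrees of freedom), with p-values adjusted by Benjamini and Hochberg at 0.05. A pseudocount of 1 makes fold changes of low genes too small. Voom was run on the recovered reads. Shares and ratios had exact permutation tests of 4 libraries against 4, and relations across libraries 100000 permutations. Python 3.11.15, numpy 2.4.6, pandas 2.3.3, scipy 1.17.1 and matplotlib 3.10.9 were used. The limma step was tested on simulated data. Gene positions and 50-base stretches came from GENCODE M21 and promoters from RefSeq.

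The members and lists were chosen with earlier results of these data known. Named members are, per comparison, the 3 highest and 3 lowest log2 fold changes, the 5 of highest mean, members under 5 RPKM on average or failing the filter, the 3 least and 3 most correlated with the rest, 14 members of known role, and of each list the called genes or the 3 of largest change; the text leaves out some of them, and a few genes are not reported here. Alternatives were other pseudocounts, filters and scalings, no trend, array weights, voom, a replicate block, removal of the length trend and leaving out libraries. Rescaled fits without each library and some joint settings were chosen after seeing the data.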

Additional observations from a re-analysis of the deposited data

Results flagged for a closer look

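In 99 groups of 4 libraries, 16 had a library whose gap to the others passed Dixon's 95% critical value. Chance flags about 1 in 20. The gene-length slope of dKO_Flt3ITD 1 was −0.304, where the other 3 libraries of that genotype lay between 0.017 and 0.035.

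Of the flagged members, 7 stood apart in dKO 1, all on the high side. There Rpl10 was at 3374 RPKM, Rpl22 at 315, Rpl38 at 2199 and Rplp1 at 3711, while Rplp2 was at 1669, Rps12 at 2520 and Rps28 at 4590. In dKO_Flt3ITD 1 there were 6, also high, with Rpl10 at 4442 RPKM, Rpl34 at 13.8, Rpl7 at 5079, Rplp0 at 4009, Rps18 at 17934 and Rps6 at 6089. These are the 2 libraries with the largest summed RPKM. In control 1 Rps12 was high at 2322 RPKM and Rps14 low at 4389, and this library had the smallest summed RPKM.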

How the results depend on the processing

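The share of members in summed RPKM stayed short of the threshold in every comparison and setting tried. Comparisons with libraries left out could not have passed it, since their smallest possible exact p is above 0.05. The direction was kept with 1 exception. With members of 1000 bases or more alone, a set chosen after seeing the data, dKO_Flt3ITD differed from control by −0.132 points. Leaving out 1 library at a time gave −2.60 to −1.07 for dKO against control, 3.65 to 6.69 for dKO_Flt3ITD against dKO and 1.79 to 4.83 against control. The ratio of large to small subunit genes differed by −0.00746 to 0.0394, −0.0440 to −0.0191 and −0.0374 to 0.00939 in that order when single libraries were left out. The difference was −0.0541 for dKO_Flt3ITD against dKO by recovered reads, and 0.00180 for dKO_Flt3ITD against control with the length trend removed.

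Calls of members changed with the scale. Against control, 1 member was called in dKO_Flt3ITD at equal summed RPKM, 1 without control 1, dKO 1 and dKO_Flt3ITD 1 together and 1 with both changes, in each case Rpl38, and against dKO 1 with both changes, also Rpl38. Leaving out single libraries gave 0 calls on the deposited scale and 0 to 3 at equal summed RPKM against control, the 3 being Rpl36, Rpl37a and Rpl38 without dKO_Flt3ITD 4. Over all genes voom called 3, 0 and 27 where limma called 109, 0 and 160 (dKO against control, dKO_Flt3ITD against dKO, dKO_Flt3ITD against control). In the comparison with 0, 824 genes had an unadjusted p under 0.05 by limma. The median log2 fold change of members ranged over settings from −0.169 to 0.143, 0.101 to 0.561 and 0.00243 to 0.614 in that order, the lowest of the last at equal summed RPKM with the length trend removed. The median r between members was 0.446 at equal summed RPKM, 0.299 there without dKO_Flt3ITD 1, and 0.599 to 0.853 when single libraries were left out on the deposited scale. On that scale it was 0.529 without control 1, dKO 1 and dKO_Flt3ITD 1 together. The relation of share to length slope was −0.724 (permutation p = 0.0276) with the slope over genes of at least 10 RPKM on average, and −0.152 for that slope without dKO_Flt3ITD 1. With the slope over all other tested genes it was 0.212 without dKO_Flt3ITD 1. The cause of these changes was not tested. Requiring a mean of 5 RPKM removed no member.

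Libraries of the same replicate number were no more alike over all tested genes. The correlation of deviations was −0.147 to 0.126 for the same number and −0.166 to 0.200 for different numbers. These values cannot decide whether libraries of the same number were made together. Library 1 had the highest share of members in each genotype, at 29.6% in control, 27.6% in dKO and 36.1% in dKO_Flt3ITD. With a replicate block limma called 0 members in each comparison, and sign-flip tests of the share gave differences of −1.86, 5.41 and 3.56 points at an exact p = 0.125 each, the smallest 4 pairs allow.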
